A study of Mus musculus with 6 samples.

Results

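Ankrd37, Ndrg1, Fam162a, Bnip3, Egln3, Ddit4, Adm, Car9, Mxi1 and Kdm3a are known targets of the hypoxia-inducible factors (HIF) that do not encode glycolytic enzymes, collagen hydroxylases or VEGF. These 10 genes were found by symbol among the 26329 genes of the deposited table. They had been chosen by their measured ISRIB against Control values in these same libraries, so every difference between the groups given for them is a description and carries no test. RNA sequencing was done on 6 libraries of cultured mouse ovary, 3 labelled Control and 3 labelled ISRIB. The Control ovaries were cultured with DMSO, the solvent, and the ISRIB ovaries with ISRIB in DMSO, so both groups carry the solvent. ISRIB keeps the initiation factor eIF2B active, so that translation goes on while the integrated stress response (ISR) is signalling. The series text names newborn ICR mice, an outbred stock, for its animal work. The sources used here give neither the dose, the culture time, the age of these ovaries, nor the origin of the replicates, which may be separate animals, separate cultures or technical repeats.

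HIF is a pair of proteins, an oxygen-regulated alpha subunit (Hif1a or Epas1) and the constant partner Arnt. With oxygen, prolyl hydroxylases of the EGLN family mark the alpha subunit and the VHL complex has it degraded. When oxygen is short the alpha subunit lasts, and the pair binds short DNA elements near its target genes. In the ovary the pathway is known above all for Vegfa and the growth of vessels around follicles. The 10 genes act in several branches of the response: feedback on HIF itself (Egln3), mitochondrial turnover and cell death (Bnip3, Fam162a), brakes on growth and on MYC (Ddit4, Mxi1), chromatin (Kdm3a), vessel and pH regulation (Adm, Car9), and stress-induced proteins of less settled function (Ndrg1, Ankrd37).

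The DNA that HIF recognises has the core ACGTG or GCGTG, and it was searched on both strands in the 250 bases before each RefSeq transcript start (GRCm38.p6, the build the submitters name as mm10). Windows were held for 9 of the 10 genes, 13 windows in all, and Ndrg1 had none. All 9 genes had a core in at least 1 window, where 41.5% of the 27025 symbols with a window did, and 5 of the 9 had 2 or more matches, against 18.7%. Symbols with several windows have more chances to match, and Mxi1 and Kdm3a had 3 windows each. The share depends on CpG content: 15.8% of windows with 0 to 4 CpG held a core and 46.2% of those with 5 to 14. It was 66.9% with 15 to 29 and 71.4% with 30 or more. Windows with a core held 19 CpG for Ankrd37, 30 for Fam162a, 24 for Bnip3, 22 for Ddit4 and 20 for Kdm3a. They held 10 for Egln3, 7 for Adm, 5 for Car9 and 13 and 42 for Mxi1, and the median over all windows was 6. Each of these falls in a class with a share of 46.2% or more, so 41.5% is a low background for them. They are, however, only the windows that held a core. Mxi1 also had a window without a core, with 13 CpG, and Kdm3a had such windows with 0 and 31 CpG. Over all windows 38.6% held a core. The other shares given for all symbols were not split by CpG. The form ACGTG was found in 7 of the 9 genes (18.5% of all symbols) and GCGTG in 6 (30.9%). The sequences printed here carry the most matches or come from genes with contrasting values, and they show how differently the cores are arranged. Each is written 5′ to 3′ on the strand of its gene, with the cores in capitals and, except for Car9, without the bases that GENCODE M21 annotates as exon. A core on the other strand reads CACGT or CACGC.
Ankrd37, chr8:45999868-46000100, minus strand: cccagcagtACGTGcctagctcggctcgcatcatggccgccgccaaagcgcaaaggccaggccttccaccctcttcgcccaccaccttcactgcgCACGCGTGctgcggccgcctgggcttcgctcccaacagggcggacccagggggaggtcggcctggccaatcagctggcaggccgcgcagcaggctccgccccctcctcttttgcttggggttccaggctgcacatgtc
Fam162a, chr16:36071595-36071684, minus strand: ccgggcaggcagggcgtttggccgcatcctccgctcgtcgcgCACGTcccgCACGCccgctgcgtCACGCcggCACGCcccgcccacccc
Bnip3, chr7:138909520-138909756, minus strand: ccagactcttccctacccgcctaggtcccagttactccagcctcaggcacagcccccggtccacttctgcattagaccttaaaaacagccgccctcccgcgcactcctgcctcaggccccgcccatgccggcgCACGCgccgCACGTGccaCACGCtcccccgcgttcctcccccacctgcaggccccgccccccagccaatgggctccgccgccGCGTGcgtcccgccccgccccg
Ddit4, chr10:59951835-59952020, minus strand: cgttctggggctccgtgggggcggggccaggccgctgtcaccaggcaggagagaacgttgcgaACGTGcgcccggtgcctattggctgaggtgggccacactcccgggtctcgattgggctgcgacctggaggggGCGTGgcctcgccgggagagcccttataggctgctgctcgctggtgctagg
Adm, chr7:110627407-110627656, plus strand: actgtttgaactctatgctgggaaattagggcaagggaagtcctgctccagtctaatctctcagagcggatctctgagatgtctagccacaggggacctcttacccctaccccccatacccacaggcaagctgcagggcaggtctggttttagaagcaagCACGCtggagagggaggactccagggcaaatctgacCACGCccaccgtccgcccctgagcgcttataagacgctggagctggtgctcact
Car9, plus strand, the 30 bases before its start (chr4:43506996-43507025): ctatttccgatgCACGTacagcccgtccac

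Fam162a had 6 matches in its window, Bnip3 5 and Ankrd37 4, and 2.99% of all symbols had 4 or more. Positions are those of the first base of a core, counted back from the start. In Bnip3 the matches at -108 and -107 overlap almost wholly, since the palindrome CACGTG reads as a core on both strands, and CACGTG was found in no other of the 9 genes (6.86% of all symbols). In Ankrd37 the matches at -155 and -152 overlap on opposite strands. The 90 bases shown for Fam162a lie between it and Ccdc58, which is transcribed the other way from the same stretch. Ddit4 and Adm had 2 matches each, in Ddit4 1 of either form and in Adm 2 of GCGTG. Egln3 and Car9 had 1 each, both ACGTG, at -229 and -18. The core of Car9 and the only one of Kdm3a, GCGTG at -27, lie in bases annotated as exon. The sequence CACAG, known as a neighbour of some HIF sites, was in 7 of the 9 genes and in 59.7% of all symbols. Neither TATAAA (14.3% of all symbols) nor TGATGNAA, the form of many ATF4 sites (3.91%), was in any of these windows. A match is a description of letters and does not show binding.

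**Figure D1:**
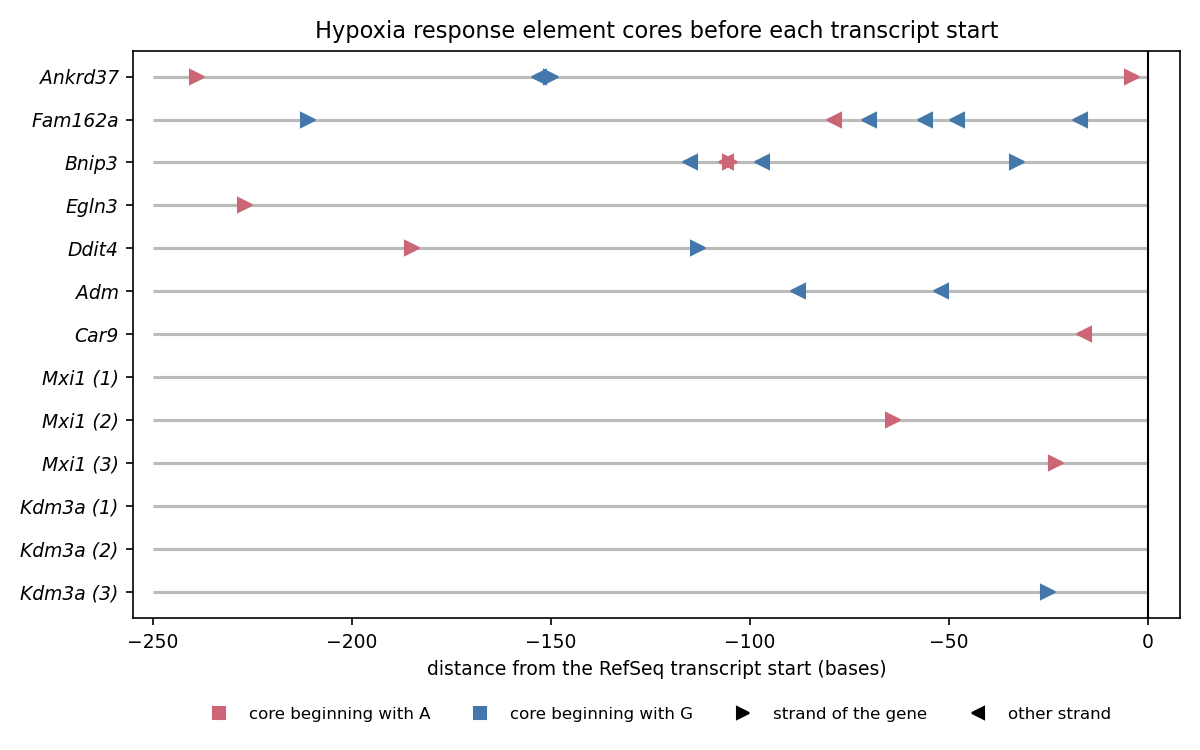
Centre of each ACGTG (red) or GCGTG (blue) core, in bases before the RefSeq transcript start, for the 13 windows of 9 genes. Triangles pointing right are on the strand of the gene. Counted by the first base of the core, the 5 matches of Bnip3 and all but 1 of the 6 of Fam162a lie from -117 to -19, whereas Egln3 has a single match at -229.

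The libraries held 34720676 to 38276984 reads in genes, worked back from the deposited values as described under the processing. Oocyte markers summed to between 1710 and 1920 FPKM (fragments counted in a gene, divided by its length and by the size of the library) in Control and between 1830 and 2080 in ISRIB, and granulosa markers to between 706 and 787 and between 728 and 876. The steroid enzyme genes Cyp17a1, Cyp11a1 and Cyp19a1 and the FSH receptor gene Fshr had a mean FPKM under 1. Other steroid genes of the same lists were well above that level. Hsd3b1 had means of 49.99 FPKM in Control and 37.19 in ISRIB, Hsd17b1 11.51 and 15.24, and Star 6.22 and 7.60. In limma fitted to log2(FPKM + 0.5) of the 12922 genes whose mean FPKM was 1 or more, 0% of genes (0 of 12922) passed an adjusted p of 0.05, the smallest adjusted p was 0.0608, and 2125 genes had an unadjusted p under 0.05. With voom, limma's model for counts, on the recovered reads 120 genes passed, 40 of them higher in ISRIB, which is 0.31% of those tested. Ndrg1, Fam162a and Bnip3 are among the 40, and nothing is read from that because the same values chose them.

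All 10 genes were above the level filter. In 9 of them the mean was higher in ISRIB, where 51.8% of all genes tested had a log2 difference above 0. In 8 every ISRIB library lay above every Control library, which held for 10.8% of all genes tested (12% lay wholly below). The same shares are the background for the counts of other lists given below. The median log2 difference, ISRIB minus Control on the log2(FPKM + 0.5) scale, was 0.38 for the 10 genes and 0.01 for all genes tested. The ratio of mean FPKM ran from 1.58 for Ankrd37 to 0.94 for Car9. In whole tissue, fewer cells that express a gene and less RNA per cell cannot be told apart.

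**Figure D2:**
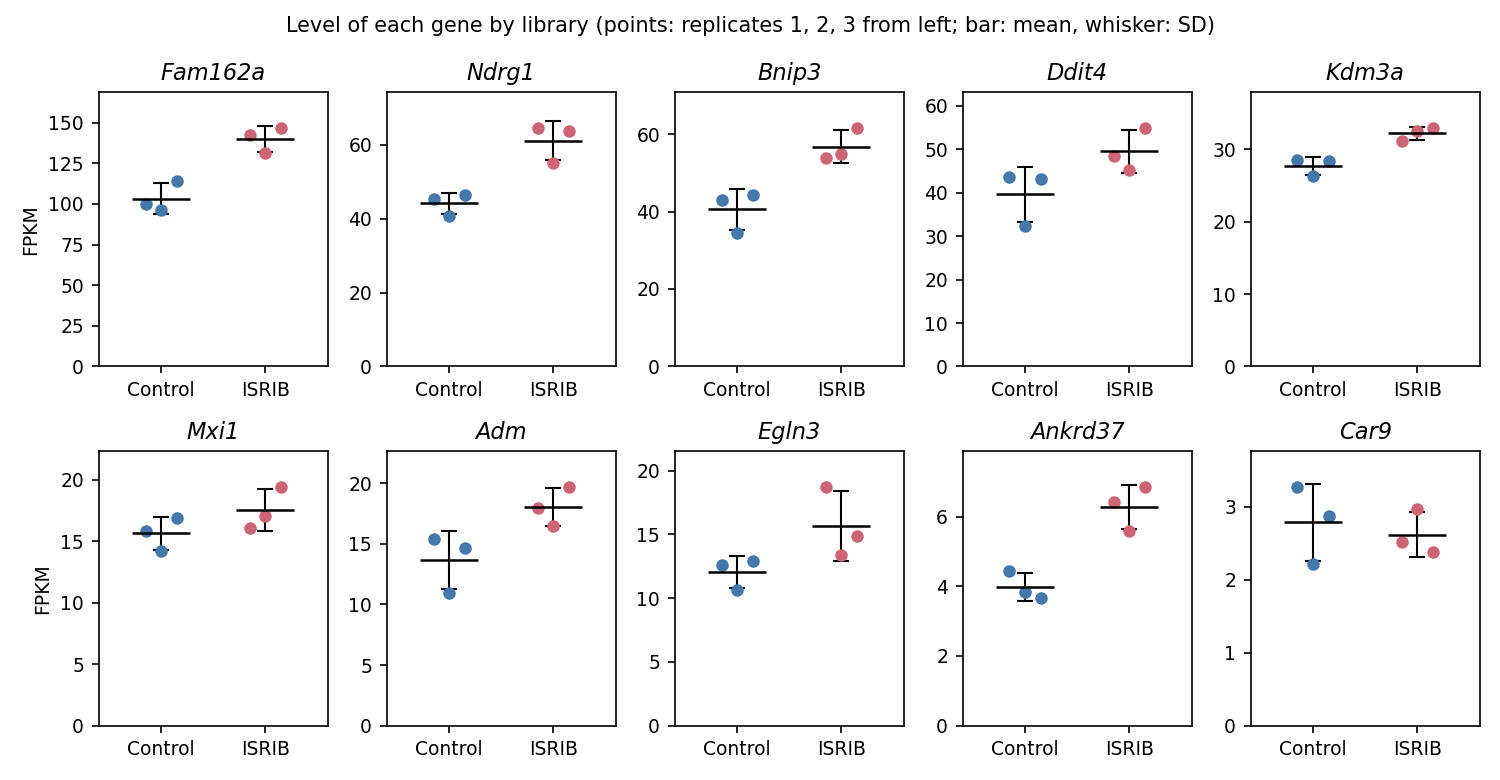
FPKM of the 10 genes in each library (points, replicates 1, 2 and 3 from left), with the mean (bar) and SD (whisker) of each group, n = 3, on axes that start at 0. The groups are apart for 8 genes and overlap for Mxi1 and Car9.

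Egln3 encodes a prolyl hydroxylase of HIF that is itself induced by HIF (chr12:54178981-54203860, GRCm38, minus strand). Its level was 12.6, 10.6 and 12.9 FPKM in Control replicates 1, 2 and 3 and 18.7, 13.4 and 14.8 in ISRIB. The groups do not overlap, but ISRIB 2 lies only just above Control 3, and ISRIB 1 stands well above the rest. The log2 difference was 0.35 (SE 0.124), and it was 0.22 without ISRIB 1. The paralogue Egln1, the main oxygen sensor of most cells, was at 38.7, 34.99 and 40.997 FPKM in Control and 46.5, 44.5 and 48.8 in ISRIB, also without overlap, whereas Egln2 differed by -0.06 (SE 0.0625) with overlapping groups.

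Bnip3 encodes a protein of the outer mitochondrial membrane that recruits the autophagy machinery (chr7:138890836-138909519, minus strand). It was measured at 43.0, 34.6 and 44.3 FPKM in Control and 53.8, 54.8 and 61.6 in ISRIB. Every ISRIB library lay above every Control library, with Control 2 the lowest of all. The log2 difference was 0.48 (SE 0.0972), a ratio of 1.40. Its close paralogue Bnip3l, which has the same role in mitophagy and is also a HIF target, was at a higher level, 60.6, 61.3 and 65.8 FPKM in Control and 67.8, 68.1 and 64.2 in ISRIB, and its groups overlapped (0.09, SE 0.0479). Of the 16 tested genes of a list of mitophagy and autophagy receptors, 13 were higher in ISRIB, 3 with no overlap, and their median of 0.06 was 0.01 after TPM rescaling or with the length trend removed. Gabarapl1, an ATG8 protein, had a difference of 0.20 (SE 0.0543) and Ulk1, the kinase that starts autophagy, -0.13 (SE 0.0482), both with groups apart.

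Fam162a, whose product is a mitochondrial protein linked to cell death under hypoxia, had the highest level per length of the 10 genes (chr16:36043761-36071594, minus strand). Control libraries stood at 100.02, 96.0 and 114 FPKM and ISRIB libraries at 142, 131 and 147. The lowest ISRIB value is above the highest Control value by a wider margin than the Control libraries differ from their mean. The log2 difference was 0.44 (SE 0.0713). At 681 bases it is also the shortest of the 10, and across all genes tested shorter genes had higher differences (Spearman's rho -0.361 between length and log2 difference, genes not being independent replicates). With that trend removed within each library the difference was 0.33. Ccdc58, the neighbour on the other side of the shared stretch printed above, was at 10.5 ± 1.71 FPKM in Control and 11.7 ± 0.867 in ISRIB (SD, n = 3), with a difference of 0.16 (SE 0.114).

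Ddit4 encodes an inhibitor of mTORC1 that acts through the TSC complex, and it is known to be induced by ATF4 and by glucocorticoids as well as by HIF (chr10:59949669-59951834, minus strand). Its values were 43.6, 32.4 and 43.1 FPKM in Control and 48.5, 45.2 and 55.0 in ISRIB. ISRIB 2 lies just above Control 1, and Control 2 is far below the other Control libraries. The log2 difference of 0.33 (SE 0.120) was 0.19 without Control 2, and after rescaling to TPM or removal of the length trend the groups overlapped. The paralogue Ddit4l differed by 0.24 (SE 0.113) with overlap. Of 13 tested genes of TSC and mTORC1 control, 7 were higher in ISRIB and 4 were lower in every ISRIB library, and their median was 0.02 (-0.03 after TPM rescaling, and just below 0 without Control 1 or ISRIB 3). Those 4 are Mtor (-0.20, SE 0.0448), Rptor (-0.16, SE 0.0497), Tsc2 (-0.13, SE 0.0444) and Sesn3 (-0.21, SE 0.0493). Rheb, the small GTPase that switches mTORC1 on, was higher in every ISRIB library (0.17, SE 0.0467).

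Mxi1 encodes a partner of MAX that opposes MYC (chr19:53310518-53375810, plus strand). It was at 15.8, 14.2 and 16.9 FPKM in Control and 16.1, 17.04 and 19.4 in ISRIB. ISRIB 1 lies below Control 3, so the groups overlap. The log2 difference was 0.16 (SE 0.0864), and leaving out ISRIB 3 or Control 2 gave 0.08 or 0.09. Of the other 12 genes of the MYC-MAX network, 8 were higher and 1, Mxd1, was wholly above (0.11, SE 0.0671). Their median was 0.06, and it was 0.01 without ISRIB 3 or after TPM rescaling. Max itself, the shared partner, differed by 0.07 (SE 0.0485).

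Kdm3a encodes a demethylase of histone H3 lysine 9 with a JmjC domain (chr6:71588972-71632990, minus strand). Its values were close together within each group, 28.6, 26.3 and 28.3 FPKM in Control and 31.2, 32.5 and 33.0 in ISRIB. The groups are apart although the ratio of means is only 1.16 (log2 difference 0.21, SE 0.0496). Its pooled within-group SD, 0.0538 on the log2 scale, stood at the 20.2 percentile of the genes tested, the lowest of the 10. Among 16 other tested JmjC genes 4 were higher and 12 lower in ISRIB, 7 of them in every library. Their median was -0.07, and it was -0.01 with the trend on gene length removed and -0.12 after TPM rescaling. The nearest relative, Kdm3b, was at 23.2, 22.6 and 22.9 FPKM in Control and 21.6, 21.5 and 21.3 in ISRIB, which is lower in all 3 libraries (-0.09, SE 0.0415). The 1 JmjC gene wholly above was Jmjd6, itself listed as a HIF target (0.20, SE 0.0647).

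**Figure D3:**
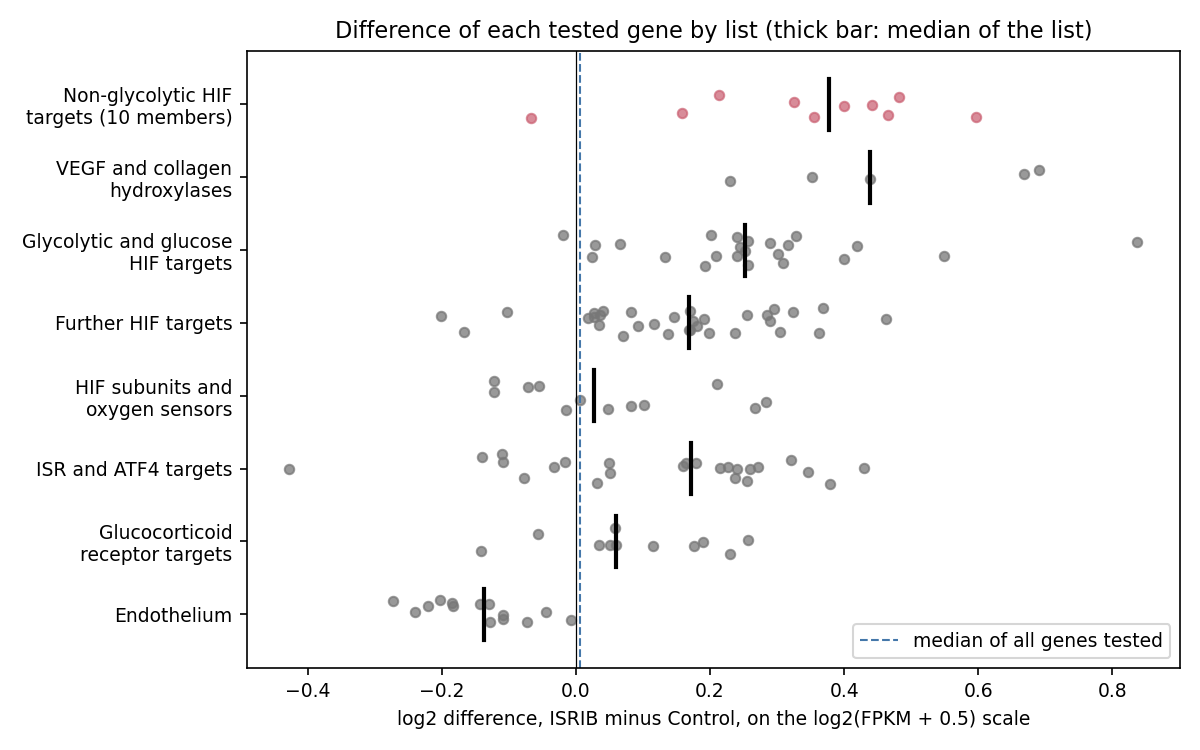
Log2 difference, ISRIB minus Control on the log2(FPKM + 0.5) scale, of each tested gene (points) in 8 lists, with the median of each list (thick bar) and of all genes tested (dashed line, 0.01). The 10 genes have a median of 0.38 and the 5 VEGF and collagen hydroxylase genes 0.44. With all 6 libraries in the fit, all 14 endothelial markers lie below 0. Endothelium is the only cell type shown.

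Adm encodes adrenomedullin, a secreted peptide that widens vessels and acts on endothelium (chr7:110627661-110629820, plus strand). Control libraries stood at 15.4, 10.9 and 14.6 FPKM and ISRIB libraries at 17.9, 16.5 and 19.7. All ISRIB values are above all Control values, and Control 2 is again the lowest. The log2 difference was 0.40 (SE 0.124), or 0.25 without Control 2. Adm2, the gene of the related peptide intermedin, was also apart (3.16, 3.07 and 4.19 FPKM against 4.40, 4.24 and 4.63). The receptor gene Calcrl (-0.06, SE 0.0724) and its partner Ramp2 (0.05, SE 0.0628) had overlapping groups, and Pam, the enzyme that amidates the peptide, was lower in every ISRIB library (-0.12, SE 0.0446).

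Car9, also called carbonic anhydrase 9, is a membrane enzyme that acidifies the outside of the cell, and it is a classical marker of hypoxia (chr4:43506966-43513729, plus strand). It had the lowest level of the 10 genes, 3.27, 2.21 and 2.87 FPKM in Control and 2.51, 2.96 and 2.38 in ISRIB, from 187 to 251 reads. The highest and the lowest of the 6 values are both Control libraries, and the ISRIB values lie between them. The log2 difference was -0.07 (SE 0.137), and its sign turned when Control 1 was left out (0.04), while without Control 2 it was -0.20. Counting error alone gives a coefficient of variation of 6.64% in Control, below the 19.2% seen between the replicates. Of 15 other carbonic anhydrase genes 6 were tested, 5 of them higher in ISRIB. Car12, also a known HIF target, differed by 0.08 (SE 0.138), and Car14 was the 1 with groups apart (1.55, 1.46 and 1.76 FPKM against 3.203, 1.88 and 3.48).

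Ndrg1 encodes a cytoplasmic protein induced by hypoxia, metals and differentiation (chr15:66929318-66969640, minus strand). Its values were 45.3, 40.8 and 46.3 FPKM in Control and 64.7, 55.2 and 63.8 in ISRIB. The lowest ISRIB library is well clear of the highest Control library. The ratio of means was 1.39, with an SE of 0.0740 on a log2 difference of 0.47. The rest of the NDRG family was mixed: Ndrg2 was higher in every ISRIB library (0.39, SE 0.134), Ndrg3 lower in every one (-0.15, SE 0.0623), and Ndrg4 lower with overlap (-0.22, SE 0.0777).

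Ankrd37 encodes a small ankyrin repeat protein and is known as a HIF target in many cell types (chr8:45996902-46005707, minus strand). It was at 4.44, 3.85 and 3.67 FPKM in Control and 6.41, 5.60 and 6.85 in ISRIB, from 289 to 506 reads. No ISRIB value comes near the Control range. Its log2 difference of 0.60 (SE 0.0977) was the highest of the 10, between 0.54 and 0.67 in all alternatives run. Its gene overlaps Lrp2bp on the other strand, which was at 0.101 ± 0.0245 FPKM in Control and 0.114 ± 0.0444 in ISRIB (SD, n = 3), and Ufsp2 by 57 bases (0.10, SE 0.0547). Since no source used here gives the strand setting of the counting, a gene and a partner on the opposite strand may have shared reads. The annotation has such partners also for Ndrg1, Fam162a, Bnip3, Adm, Car9 and Mxi1, and none for Egln3, Ddit4 and Kdm3a.

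By level per length, Control means ran from 103 ± 9.42 FPKM for Fam162a to 2.78 ± 0.533 for Car9 (SD, n = 3). Below Fam162a came Ndrg1 (44.2 ± 2.92), Bnip3 (40.6 ± 5.30) and Ddit4 (39.7 ± 6.34), each of which overlapped the next in range. Kdm3a (27.7 ± 1.23) stood apart from both neighbours. Mxi1 (15.6 ± 1.37), Adm (13.7 ± 2.38) and Egln3 (12.1 ± 1.26) overlapped again, and Ankrd37 (3.99 ± 0.403) was clear of Egln3 above and Car9 below. In ISRIB the order was the same except that Adm (18.04 ± 1.59) came before Mxi1 (17.5 ± 1.71), with overlapping ranges. Fam162a was at 140.2 ± 7.99 FPKM there and Car9 at 2.62 ± 0.306.

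Within the groups, most of the 10 genes varied together between libraries once the group means, on which they had been chosen, were subtracted. Control 2 was the lowest Control library for 9 of the 10, all but Ankrd37, whereas it was the lowest for 32.5% of all genes tested. The median deviation of the 10 genes from their group mean on the log2 scale was 0.080, -0.152 and 0.105 in Control 1, 2 and 3, and -0.016, -0.106 and 0.094 in ISRIB 1, 2 and 3, against medians between -0.006 and 0.011 for all genes. ISRIB 3 was the highest ISRIB library for 7 genes (32.5% of all genes), and ISRIB 2 the lowest for 6 (24.4%). The spread was above that of most genes: the median pooled SD was 0.144 for the 10 and 0.0881 for all genes tested, with Egln3, Ddit4, Adm and Car9 at percentiles 88.4 to 89.0. After subtraction of the group means, Ddit4 had a Pearson r of 0.995 with the mean of the other 9 genes over the 6 libraries, Adm 0.990 and Bnip3 0.937. Egln3 had 0.481, Ankrd37 0.411 and Car9 0.392. Of the ISRIB libraries, Car9 was highest in ISRIB 2 and lowest in ISRIB 3. These r share the same 6 libraries and are given without a test.

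**Figure D4:**
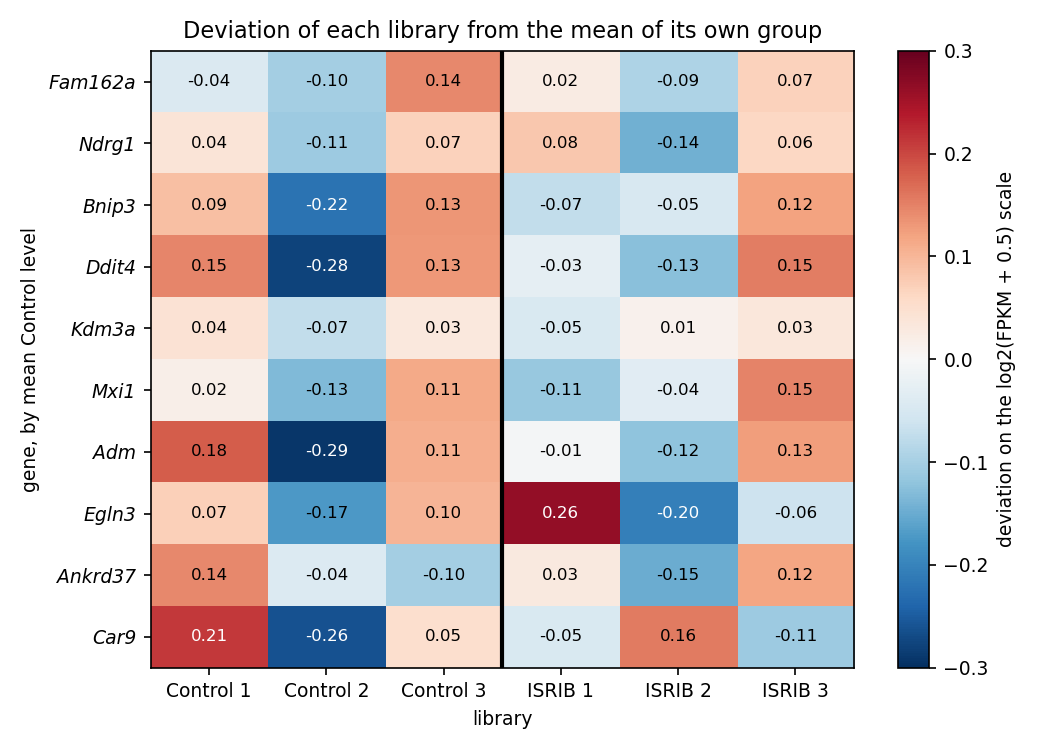
Deviation of each library from the mean of its own group, on the log2(FPKM + 0.5) scale, for the 10 genes ordered by Control level. Blue is below and red above the group mean, and Control 2 is the lowest Control library in every row but that of Ankrd37.

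Of the other HIF targets, the 5 VEGF and collagen hydroxylase genes had a median deviation of -0.145 in Control 2 and the 23 glycolytic genes one of -0.065, the lowest of the Control libraries for both. For the 32 further targets Control 2 hardly stood apart, at -0.030 against -0.025 in Control 1. Immediate early genes, which respond to handling of tissue within minutes, stood the other way in Control 2. In ISRIB 1, 2 and 3 the median deviation of these genes was 0.783, -0.315 and -0.436, against -0.016, -0.106 and 0.094 for the 10 genes. Their summed level was 181.3, 379.8 and 195.5 FPKM in Control and 529.5, 221.6 and 191.3 in ISRIB, so Control 2 and ISRIB 1 were the high libraries. Red cell markers were high in ISRIB 1, with a summed level of 328.4 FPKM against 40.5 to 75.9 in the other 5. The part of either in the values of the 10 genes was not tested.

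The genes most like the 10 were sought by Pearson r with their mean z score over the 6 libraries, among 12244 tested genes with predicted and clone names left out. The highest were Fam133b (0.996), Hdac3 (0.996), Rnf146 (0.995), Bsg (0.993) and Tincr (0.987). That score contains the group difference by which the 10 genes were chosen, so it favours genes whose groups lie apart. With 12244 genes and only 6 libraries high r are found easily, and they are given without a test. Bsg, the gene of basigin, which escorts lactate transporters to the membrane, was at 283, 252 and 287 FPKM in Control and 330, 314 and 335 in ISRIB. With the group means subtracted the highest were Sox12 (0.994), Hdac3 (0.991), Fam133b, Serinc2 and Gk5 (0.990 each). Serinc2 was lower in every ISRIB library (-0.38, SE 0.119), opposite to the 10 genes between the groups and alike within them.

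Among the other HIF targets listed, 60 of 62 were tested, 56 were higher in ISRIB, 30 wholly above and 1 wholly below, with a median log2 difference of 0.22. None passed the limma threshold. Vegfa, the vascular growth factor, stood at 86.9, 75.5 and 88.8 FPKM in Control and 129, 127 and 150 in ISRIB. The 23 glycolytic and glucose genes had a median of 0.25 and 18 were wholly above, and the 5 VEGF and collagen hydroxylase genes 0.44 with 4 wholly above. The 32 further targets had a median of 0.17 (0.11 without ISRIB 1), with 29 higher and 8 wholly above, among them Higd1a (0.29, SE 0.0593), Wsb1 (0.30, SE 0.0713), Stc1 (0.29, SE 0.0748) and Ero1a (0.36, SE 0.103). These lists were drawn up with earlier results of the same libraries known, so they are not independent evidence of direction.

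The regulators themselves had no common direction. Of 12 HIF subunits and oxygen sensors 7 were higher and 5 lower in ISRIB, with a median of 0.03 that became -0.02 after TPM rescaling or without ISRIB 1. Hif1a was at 45.6, 49.4 and 46.8 FPKM in Control and 48.7, 44.1 and 42.2 in ISRIB, with overlapping groups (-0.07, SE 0.0612). Epas1, the alpha subunit of vessels among other cells, differed by 0.27 (SE 0.114), also with overlap. Hif1an, the asparaginyl hydroxylase that blocks HIF activity, was lower in every ISRIB library (-0.12, SE 0.0494). HIF activity is known to be set largely by protein stability, which RNA levels do not measure.

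Pathways that share targets with the 10 genes were listed too. Of 24 ISR and ATF4 target genes 17 were higher in ISRIB, 4 wholly above and 1 wholly below, and their median was 0.17 (0.05 without ISRIB 1). Atf4 stood at 118, 143 and 131 FPKM in Control and 183, 144 and 138 in ISRIB, with ISRIB 1 far above the rest. Ddit3 was wholly above (0.43, SE 0.097) and Chac1 wholly below (-0.43, SE 0.101), although both are known ATF4 targets. Of 11 glucocorticoid receptor targets 9 were higher, none wholly above, and Fkbp5, the most used marker of that receptor, was wholly below (-0.14, SE 0.0404).

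The cell type markers had no common direction. Of 15 oocyte markers tested 10 were higher in ISRIB, 3 wholly above and 1 wholly below (median 0.11, 0.03 after quantile normalization). Granulosa markers and those of stroma and theca were split, in each list 5 higher and 5 lower of 10 tested. The 3 red cell markers tested were higher, and of 7 immune markers 4 were lower. Most markers of endothelium, of pericytes and smooth muscle and of surface epithelium were lower. All 14 endothelial markers were lower in ISRIB by the mean and 5 wholly below, with a median of -0.14 (-0.08 without ISRIB 1) and a summed level of 260 to 288 FPKM in Control and 223 to 260 in ISRIB. Kdr (-0.22, SE 0.0474), Cdh5 (-0.27, SE 0.0624) and Pecam1 (-0.24, SE 0.0846) were among the 5. That every endothelial marker was lower rests on ISRIB 1. By the mean of ISRIB 2 and 3 alone, Egfl7, Robo4, Tie1 and Plvap were higher than in Control and the others lower. Egfl7 was at 50.6, 44.7 and 55.0 FPKM in Control and 41.9, 55.4 and 52.7 in ISRIB. Of 11 markers of pericytes and smooth muscle 7 were lower and 4 wholly below, with a summed level of 149 to 159 and 132 to 141 FPKM. The 4 higher were smooth muscle genes, Acta2 (0.21), Tagln (0.26), Cnn1 (0.21) and Myh11 (0.07), and Tagln was wholly above. The median of the 11 markers, -0.09, was -0.02 without ISRIB 3, -0.16 without ISRIB 2 and -0.25 at a mean FPKM of 5 or more. Surface epithelium markers were likewise lower, 9 of the 9 tested and 1 wholly below, with a median of -0.12 (-0.03 without Control 1, -0.27 without Control 3) and a summed level of 252 to 322 FPKM in Control and 249 to 262 in ISRIB. The count of 9 rests on Control 1, with a sum of 321.8 FPKM against 258.6 and 251.9 in Control 2 and 3. Against the mean of Control 2 and 3 alone, Krt8, Krt18, Krt19 and Upk3b were slightly higher in ISRIB and the other tested markers lower. The part of these cell types in the levels of Adm, Epas1 or any of the 10 genes was not tested.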

How the data were processed

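The authors deposited FPKM values, 1 column per library, with replicates not pooled, and these were the only values used. Per the submitters' processing notes, the tools were fastp, HISAT2, HTSeq, DESeq2 and R 3.2.0 and the build mm10, with no roles stated. For annotation and strand setting, not given in the sources used here, nothing was assumed. Dividing each FPKM by a library and a gene factor gave whole read numbers (99.99% of genes within 0.01 read), and from these the depths. Counting error is below the replicate spread for every member.

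Differences came from limma 3.58.1 in R 4.3.3 on log2(FPKM + 0.5), which understates changes of low genes (2 groups, two-sided, Benjamini-Hochberg adjustment, empirical Bayes moderation with a trend on intensity). The script was tested on simulated data. Fold values are ratios of mean FPKM. Alternatives changed the pseudocount, level filter, scaling, spread model, length trend, replicate block and count model, or left out a library. Python 3.11.15 and pandas 2.3.3 made the tables and matplotlib 3.10.9 the figures. Gene positions are from GENCODE M21, promoter sequences from RefSeq.

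The members and lists were chosen with earlier results of these data known. Named genes are the members, up to 4 genes per list with the smallest limma p, 16 fixed regulators and relatives, and the 5 genes most like the members by each measure. Not every gene it names is printed. Ero1a, Tsc2, Ddit4l, Ccdc58, Lrp2bp, Ufsp2, Hsd17b1, Star, Acta2, Tagln, Cnn1 and Myh11 fall outside it and were chosen after their values were seen. P-values measure the spread between these libraries, which may be technical. Replicates differed beyond sampling noise in every pair (chi-square per gene 7.79 to 18.9).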

Additional observations from a re-analysis of the deposited data

How the results depend on the processing

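Over 20 alternatives the median difference of the 10 genes stayed between 0.26 (without Control replicate 2) and 0.46 (without ISRIB replicate 2). Every ISRIB library lay above every Control library for 7 to 9 of the 10. That held for 5.51% (TPM rescaling) to 19.6% (without ISRIB replicate 1) of all genes tested. With each library left out in turn the count was 8 to 9, against 14.6% to 19.6% of all genes tested. It was 9 only without Control replicate 3 (16.8%) or ISRIB replicate 1 (19.6%). With each library left out the number of genes called by limma was 0 to 0. Of the single genes only Car9 changed sign, with array weights (0.01) and without Control replicate 1 (0.04), and a mean FPKM of at least 5 left it out of the fit. Fam162a went from 0.44 to 0.33 with the length trend removed, and to 0.32 with voom and the length trend removed.

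The number of genes called over the whole table moved from 0 to 19 after TPM rescaling, 16 with array weights, 8 at a mean FPKM of at least 5 and 120 with voom on the recovered reads. It was 23 with voom and the length trend removed together, an alternative added after the data were seen. Ndrg1, Fam162a and Bnip3 were among the 120, and none of the 10 genes was among the 19, 16, 8 or 23. The cause was not tested. With the replicate number as a block 11 of 12922 genes were called, 9 of them higher in ISRIB. Ndrg1 and Fam162a are among the 11, and as with the 120 nothing is read from that, because the same values chose them. Over all genes same-numbered libraries did not deviate together (r of -0.190, -0.091 and 0.192), so the numbers were not taken to pair the samples. For the 10 genes replicates 2 were low in both groups (median deviation -0.152 and -0.106) and replicates 3 high (0.105 and 0.094), and the block lowered the SE of Ddit4 from 0.120 to 0.0679 and that of Fam162a from 0.0713 to 0.0438. TPM rescaling moved the median of all genes from 0.01 to -0.04. Even for Car9, with 187 to 251 reads per library, the spread between replicates was wider than the counting error.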
